A study of Mus musculus with 12 samples.

Results

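The 9 genes described here are Nipal3, Slc6a11, Bckdha, Fn3k, Fam100a, Fam100b, Zswim4, A930001N09Rik and 1700084C01Rik, out of 23965 gene rows measured. They were chosen by name as genes that are not classical Wnt targets and that had fewer reads after CT99021, an inhibitor of the kinase GSK3, in mouse neural cultures. Each has 1 row in the table, and all 9 were among the 15608 rows with enough reads to be tested. RNA was sequenced from neurospheres, which are floating clusters of neural progenitors and their progeny, grown from E11.5 ventral midbrain of the CD-1 mouse strain. The cultures were expanded and then exposed for 5 hours, in N2 medium, to vehicle (DMSO; the control), to GW3965, an agonist of the liver X receptors, to CT99021, or to GW3965 and CT99021 together (GW3965+CT99021). Each of these 4 groups held 3 libraries, numbered 1 to 3. The labels do not say whether equal numbers mark a shared culture or day, nor whether the libraries of a group came from separate litters, so the p-values rest on library-to-library spread that may be technical. No genotype or transgene differed between the groups.

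GSK3 phosphorylates beta-catenin and marks it for destruction, so that inhibiting the kinase stabilises beta-catenin and switches on Wnt target genes. The same kinase phosphorylates many other proteins, among them glycogen synthase, regulators of protein synthesis and several transcription factors. The 9 genes are known for other processes. Nipal3 is a NIPA-like membrane protein of a family of magnesium transporters. Slc6a11 carries the inhibitory transmitter GABA into cells and is best known from astrocytes. Bckdha is the E1 alpha subunit of the branched-chain ketoacid dehydrogenase, the mitochondrial complex of the committed step in leucine, isoleucine and valine breakdown. Fn3k is a kinase that starts the removal of sugar adducts from glycated proteins. Fam100a and Fam100b are paralogs with a ubiquitin-associated-like domain, now called Ubald1 and Ubald2, and Zswim4 is a SWIM-type zinc finger protein. A930001N09Rik is now called Crebrf, a nuclear regulator that restrains the endoplasmic reticulum stress factor CREB3. The coiled-coil gene 1700084C01Rik is now called Ccdc190. Current names were matched through RefSeq's synonyms.

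The gene counts of the 12 libraries summed to between 9646424 and 21314093 reads. Levels are given as CPM, a gene's counts relative to the total of its library, scaled with edgeR's TMM factors. Axin2, a Wnt feedback gene used here only to check the labels, averaged 73.7 CPM in the controls and 252.9 CPM with CT99021. In 5 libraries, the 4 numbered 3 and GW3965+CT99021 replicate 2, 172 gene rows were parted from all other libraries by at least 1.5-fold, against at most 21 rows when GW3965+CT99021 replicate 2 was exchanged for any other library. The controls and the GW3965+CT99021 libraries carried the same index labels. In CT99021 replicate 1 the gene Lars2 took 7.95% of the counts, against 0.142% or less elsewhere. Summed neural progenitor markers lay between 2657 and 4071 CPM in the controls and between 2450 and 3453 CPM with CT99021. Midbrain and floor plate markers lay between 363 and 554 CPM and between 392 and 542 CPM, respectively. Markers of other cell types were present too: erythroid genes summed to between 2078 and 11880 CPM and mesenchymal genes to between 207.5 and 3510 CPM over the 12 libraries. Comparing GW3965+CT99021 with GW3965, in the fit with a replicate block explained in the next paragraph, 4 of the 5 mesenchymal genes rose: Twist1 by 1.62 on the log2 scale (edgeR adjusted p = 0.000914), Foxc1 by 1.42 (0.00589), Col3a1 by 1.30 (0.0174) and Col1a2 by 1.08 (0.019). In that comparison and fit 20.6% of all rows were called, 1843 higher and 1375 lower, and in CT99021 against control 15.8% were. The marker calls given here are to be read beside these shares. The mesenchymal list averaged 1166 CPM with GW3965 and 1945 CPM with GW3965+CT99021, and 1370 and 1762 CPM in the controls and with CT99021, where Twist1 alone passed. The progenitor genes Sox2 and Nes, the neuronal gene Elavl4, the endothelial gene Kdr and the microglial gene Cx3cr1 fell in GW3965+CT99021 against GW3965 and in CT99021 against control, both with the block. In the former Sox2 fell by 0.31, Nes by 0.38, Elavl4 by 0.74, Kdr by 0.60 and Cx3cr1 by 0.93. Other genes of the progenitor, neuronal and endothelial lists went the other way there, none of them called. The progenitor gene Hes5 had 0.55, the neuronal gene Tubb3 0.31, and the endothelial genes Cdh5 and Pecam1 0.74 and 0.12. The remaining tested genes of these lists were below 0. Of these, the progenitor genes Pax6 and Fabp7 were called there, at -0.53 (edgeR adjusted p = 0.0247) and -0.54 (0.0369), but not in CT99021 against control. Of the midbrain and floor plate list Foxa2 alone was called in GW3965+CT99021 against GW3965, at -0.43 (0.04), while En1 had 0.07. In CT99021 against control Tubb3 rose by 0.36 (edgeR adjusted p = 0.046 with the block). The part of these markers in the results was not tested. In bulk RNA, fewer cells of a type and less RNA per cell cannot be told apart.

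A difference was called when edgeR's quasi-likelihood test gave a Benjamini-Hochberg adjusted p under 0.05 over the 15608 rows. The fit was made in 2 forms, plain and with a block for the replicate number, a term that removes what libraries of equal number share. The genes were chosen as lower with CT99021, so their values in CT99021 against control are a description and carry no p-value. The test reported for them is GW3965+CT99021 against GW3965, which compares the means of the other 6 libraries. All 12 libraries enter the fit, however, and so set its estimate of the spread and, with the block, its replicate terms. Values of all 4 groups had been seen when the genes were named, so this test is not fully independent of the choice either. A log2 fold change of -1 is a halving of the level, and each is given with its standard error (SE).

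Nipal3 (chromosome 4, listed position 135004815, minus strand, in the mm9 build as all positions in the table) had 27.9, 24.9 and 30.6 CPM in the control libraries and 26.7, 23.8 and 33.2 CPM with GW3965. With CT99021 it had 6.43, 3.84 and 6.81 CPM, and with GW3965+CT99021 4.83, 3.56 and 6.03 CPM. The GW3965 libraries all lay above 23 CPM and the GW3965+CT99021 libraries all below 7. A parting of these groups, of any width, held for 7.2% of all rows. The mean went from 27.8 ± 2.87 CPM (SD, n = 3) in controls to 5.69 ± 1.62 with CT99021, a log2 fold change of -2.29 (SE 0.26), the 5th lowest of all rows tested. In GW3965+CT99021 against GW3965 it fell 5.80-fold (log2 -2.54, SE 0.26), with an edgeR adjusted p of 0.00545 without and 1.77e-05 with the block.

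Slc6a11 (chromosome 6, position 114081134, plus strand), the other membrane transporter, had 70.0, 86.1 and 70.1 CPM in controls and 69.5, 86.5 and 57.4 CPM with GW3965. It had 33.5, 37.4 and 30.0 CPM with CT99021 and 30.8, 26.7 and 25.8 CPM with GW3965+CT99021. Library 2 was the highest both of the controls and of the GW3965 group. The fold change against control was -1.16 (SE 0.17) on the log2 scale, and in GW3965+CT99021 against GW3965 it fell 2.56-fold (log2 -1.36, SE 0.17; edgeR adjusted p = 0.016 without and 0.000142 with the block). Because this transporter is known from astrocytes, the astrocyte list (Gfap, Aqp4, Aldh1l1, Gjb6 and Slc1a2) was read beside it. The summed level of its 5 genes lay between 136.5 and 185.3 CPM in controls, 141 and 177 with GW3965, 116.8 and 119 with CT99021, and 114 and 164 with GW3965+CT99021. Gfap, the defining astrocyte filament gene, was at or near 0 in every library, at most 0.152 CPM. Slc1a2, a glutamate transporter, made up most of the sum and went from 123.1 ± 17.7 to 90.1 ± 8.55 CPM with CT99021 (SD, n = 3), a log2 fold change of -0.45 (SE 0.13) beside -1.16 for Slc6a11. Aqp4, the water channel of astrocytes, went from 3.09 to 1.65 CPM and Aldh1l1 from 30.9 to 22.7, while Gjb6 went from 2.04 to 3.56. With the block Slc1a2 passed in CT99021 against control (log2 -0.44, SE 0.11, edgeR adjusted p = 0.0245), where 15.8% of all rows were called. Aqp4, Aldh1l1 and Gjb6 did not pass in that fit. In GW3965+CT99021 against GW3965 none of these genes passed without the block. With it Slc1a2 had -0.14 (SE 0.11, edgeR adjusted p = 0.39) and Gjb6 0.76 (SE 0.70, 0.476). Aqp4 had -1.20 (SE 0.28, 0.0158) and Aldh1l1 -0.42 (SE 0.12, 0.0294), where 20.6% of all rows were called. The part of these markers in the Slc6a11 result was not tested.

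Bckdha (chromosome 7, position 26414870, minus strand) had 24.4, 26.6 and 32.5 CPM in controls and 23.3, 24.6 and 27.2 CPM with GW3965. It had 13.4, 14.0 and 14.1 CPM with CT99021 and 12.4, 11.1 and 11.2 CPM with GW3965+CT99021. Libraries with CT99021 were close to each other. Of the 9 genes it had the smallest change against control, -1.0 (SE 0.14) on the log2 scale, the 209th lowest of all rows. Against GW3965 alone, GW3965+CT99021 lowered it 2.16-fold (log2 -1.11, SE 0.14; edgeR adjusted p = 0.0173 without and 0.000508 with the block).

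Fn3k (chromosome 11, position 121296166, plus strand), the deglycating kinase, was rare. Its reads numbered 24, 29 and 37 in the controls, 36, 19 and 24 with GW3965, 2, 8 and 15 with CT99021, and 2, 3 and 5 with GW3965+CT99021. As CPM these were 1.11, 1.43 and 2.94, then 1.66, 1.28 and 2.41, then 0.18, 0.50 and 0.99, then 0.11, 0.23 and 0.42. The highest library with CT99021 lay just below the lowest control, and library 3 was the highest in each group. The log2 fold change was -1.65 (SE 0.63) against control. In GW3965+CT99021 against GW3965 it was -2.83 (SE 0.69), a difference that did not pass without the block (edgeR adjusted p = 0.172) and did with it (0.0018). With 10 reads in the 3 GW3965+CT99021 libraries together, the size of this change is poorly determined.

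**Figure D1:**
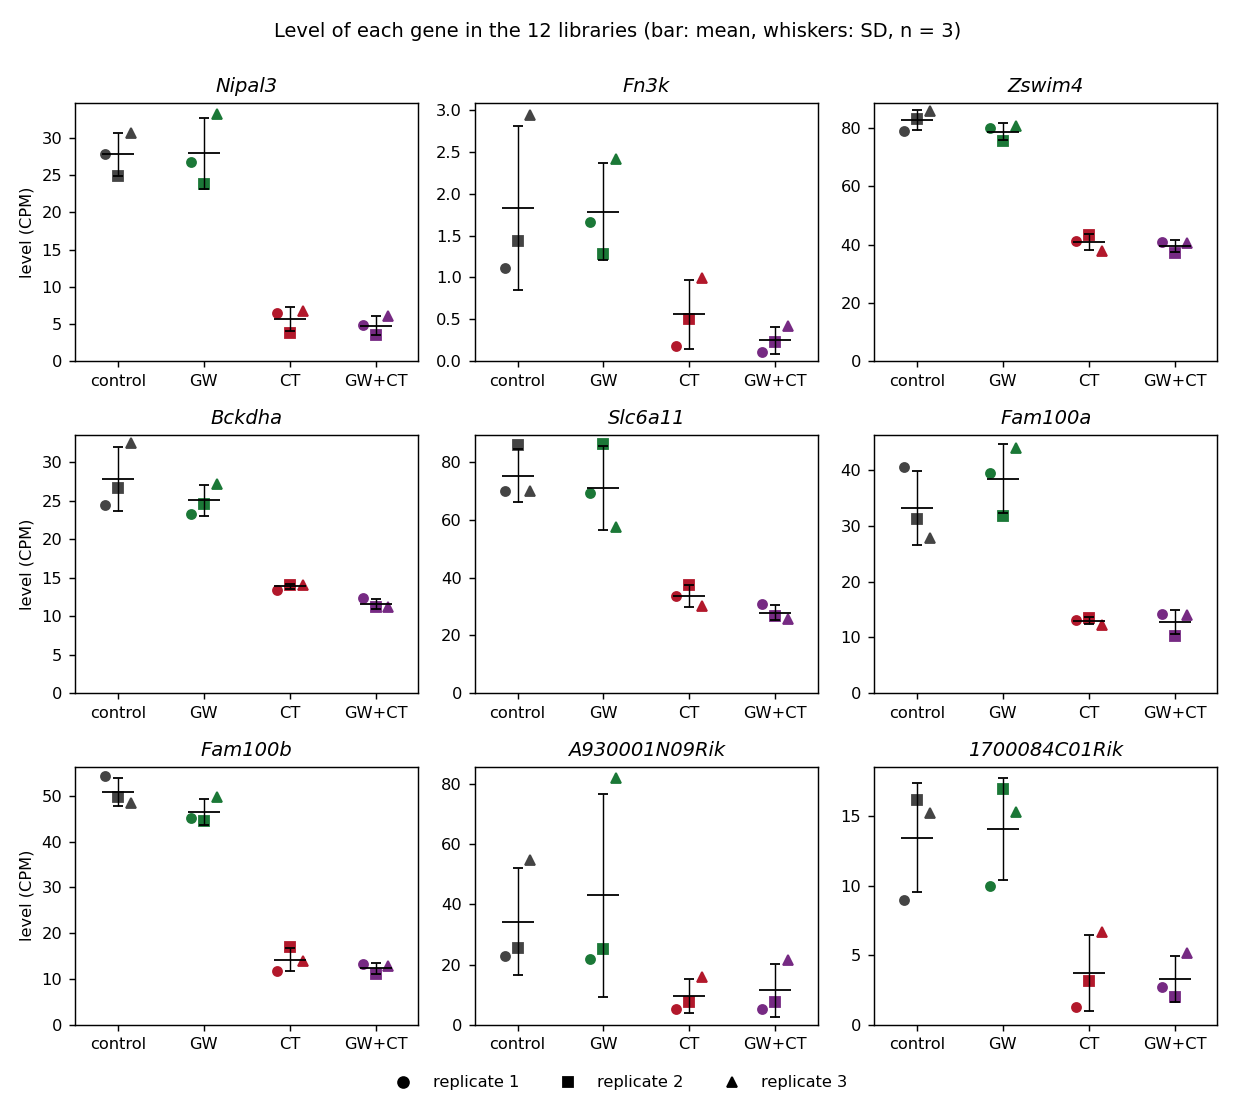
Level of each gene in CPM (vertical axis, from 0) in the 12 libraries, grouped as control, GW3965 (GW), CT99021 (CT) and GW3965+CT99021 (GW+CT); symbols give the replicate number, bars the mean and whiskers the SD of 3 libraries. In each panel the 3 GW3965+CT99021 libraries lie below the 3 GW3965 libraries, which holds for 7.2% of all rows. The libraries numbered 3 stand high for A930001N09Rik and Fn3k.

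The plot of levels by library shows the paralogs Fam100a and Fam100b falling side by side from different levels. Fam100a (chromosome 16, position 4874778, minus strand) had 40.6, 31.3 and 27.8 CPM in controls, 39.4, 31.8 and 44.1 with GW3965, 13.1, 13.5 and 12.3 with CT99021, and 14.1, 10.2 and 13.9 with GW3965+CT99021. Fam100b (chromosome 11, position 116295307, plus strand) had 54.3, 49.7 and 48.5 CPM in controls, 45.3, 44.4 and 49.7 with GW3965, 11.8, 16.9 and 14.0 with CT99021, and 13.2, 11 and 12.9 with GW3965+CT99021. With CT99021 both genes came to similar levels, 13 ± 0.60 and 14.2 ± 2.59 CPM (SD, n = 3), from 33.2 ± 6.59 and 50.8 ± 3.05 in the controls. The change against control was -1.36 (SE 0.19) for Fam100a and -1.83 (SE 0.15) for Fam100b on the log2 scale. Fam100a fell 3.01-fold in GW3965+CT99021 against GW3965 (log2 -1.59, SE 0.19; edgeR adjusted p = 0.0152 without and 0.000358 with the block). Fam100b fell 3.75-fold (log2 -1.91, SE 0.15; edgeR adjusted p = 0.000696 without and 6.68e-05 with the block). A further row, Gm7367, is listed 119 bases from Fam100b with 50.5 CPM in controls and a level that followed it in every library, so the pair may not be separate measurements.

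Zswim4 (chromosome 8, position 86734840, minus strand) had the tightest control libraries of the 9 genes, with 79.1, 83.3 and 85.8 CPM in controls and 80.0, 75.6 and 80.9 CPM with GW3965. It had 41.3, 43.5 and 38.0 CPM with CT99021 and 41.1, 37.1 and 40.5 CPM with GW3965+CT99021. The coefficient of variation of its controls was 4.12%, against 6.0% for Fam100b, 10.3% for Nipal3 and up to 53.3% for Fn3k. Its change against control was -1.01 (SE 0.10) on the log2 scale. Between GW3965 and GW3965+CT99021 it fell 1.99-fold (log2 -0.99, SE 0.10; edgeR adjusted p = 0.00463 without and 0.000138 with the block).

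A930001N09Rik (chromosome 17, position 26852494, plus strand), the Crebrf gene, varied most between libraries of 1 group in absolute terms. It had 22.8, 25.4 and 54.6 CPM in controls, 21.9, 25.3 and 81.8 with GW3965, 5.24, 7.42 and 15.9 with CT99021, and 5.31, 7.5 and 21.4 with GW3965+CT99021. Library 3 was the highest in each group, by 1.18 to 1.79 on the log2 scale over the mean of libraries 1 and 2. Across numbers the groups nearly met, since the highest library with CT99021 had 21.4 CPM and the lowest without it 21.9 CPM. Within a number they stood far apart: GW3965+CT99021 minus GW3965 was -2.02, -1.74 and -1.93 on the log2 CPM scale for numbers 1, 2 and 3. Accordingly the fitted change in that contrast, -1.92 (SE 0.69), did not pass without the block (edgeR adjusted p = 0.322), while with it the change of -1.90 (SE 0.15) did (0.000138). Against control the log2 fold change was -1.84 (SE 0.69).

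1700084C01Rik (chromosome 1, position 171858969, plus strand), the Ccdc190 gene, had 8.94, 16.1 and 15.2 CPM in controls, 9.94, 16.9 and 15.3 with GW3965, 1.29, 3.15 and 6.68 with CT99021, and 2.71, 1.97 and 5.18 with GW3965+CT99021. Library 1 was the lowest in the control and GW3965 groups, and library 3 the highest in both groups with CT99021. Same-numbered differences were uneven, at -2.68, -2.31 and -1.18 for CT99021 minus control and -1.83, -3.02 and -1.54 for GW3965+CT99021 minus GW3965 on the log2 CPM scale. The fitted change in GW3965+CT99021 against GW3965 was -2.10 (SE 0.54), with an edgeR adjusted p of 0.188 without and 0.00286 with the block. Against control it was -1.84 (SE 0.54).

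**Figure D2:**
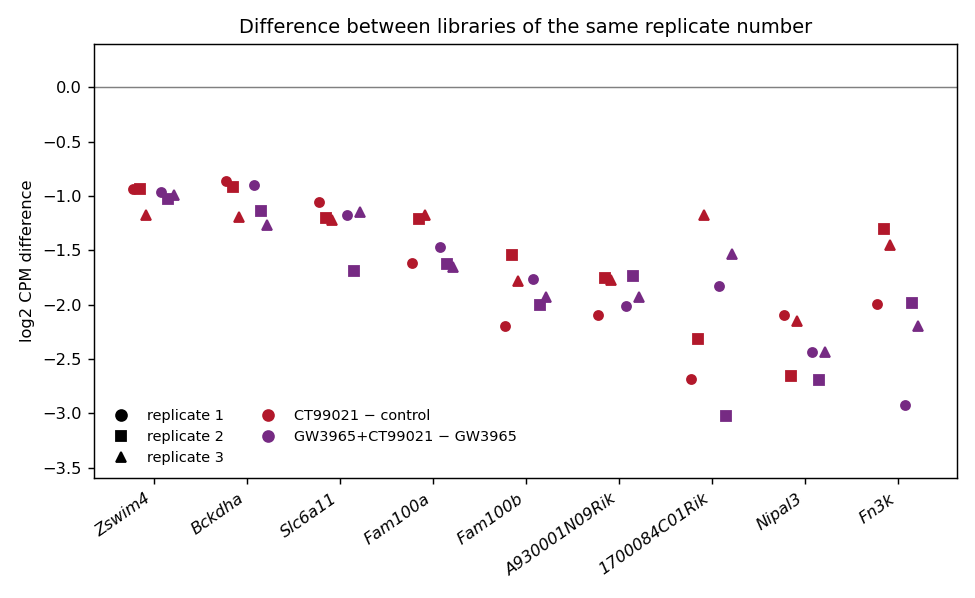
Difference in log2 CPM (vertical axis) between libraries of the same replicate number, for CT99021 minus control (red) and GW3965+CT99021 minus GW3965 (purple), with symbols giving the number. All 54 differences lie below 0, with Zswim4 and Bckdha nearest to it.

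In the 9 genes together, all 54 same-numbered differences were below 0. For the 27 of CT99021 minus control this follows from how the genes were chosen. Values of the other 27 had also been seen by then, a limit that the counts below share. Those 27 are below 0 under any pairing, since the GW3965 and GW3965+CT99021 libraries part as given below. In GW3965+CT99021 against GW3965, 6 of the 9 genes fell without the block (Nipal3, Zswim4, Bckdha, Slc6a11, Fam100a and Fam100b), where 0.0705% of all rows were called lower, and 0.0769% in either direction. The 0.0705% stands for 11 rows, and these 6 genes are among them. The share is thus largely made of the chosen genes, so the count of 6 beside it is a description only. With the block 9 of 9 fell, where 8.81% of rows were called lower and 20.6% in either direction. The median log2 fold change of the 9 genes was -1.91 without the block, beside 0.02 over all rows tested. For each of the 9 genes the 3 GW3965+CT99021 libraries lay below the 3 GW3965 libraries, which held for 7.2% of all rows. The change in this contrast was not particular to these genes, since 337 rows had a log2 fold change at or below that of the least changed member, Zswim4. Without the block the count of 6 rested on single libraries: it was 2 without GW3965+CT99021 replicate 1, 3 without GW3965+CT99021 replicate 2 or 3 or GW3965 replicate 1, and 4 without GW3965 replicate 2 or 3. Nipal3 did not pass without GW3965+CT99021 replicate 1, while Zswim4 and Fam100b passed whichever library was left out. With the block all 9 genes passed whichever library was left out. In these fits with 1 library left out, 3 to 14 of all rows were called without the block and 1396 to 3683 with it. The counts of the 9 genes are to be read beside these. Without the 5 libraries that stood apart, which leaves 1 GW3965+CT99021 library assumed to vary like the others, 0 of the 9 passed without the block and 9 of 9 with it. A fit without the block on the 6 libraries of this contrast called 1, Fam100b, and the same fit with the block called 9. Over all alternatives, these included, 0 to 4339 of all rows were called in this contrast. The counts of the 9 genes therefore describe the settings. Without GW3965 replicate 3 the fall of A930001N09Rik was -1.07 on the log2 scale in place of -1.92, and without GW3965+CT99021 replicate 3 it was -2.74.

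**Figure D3:**
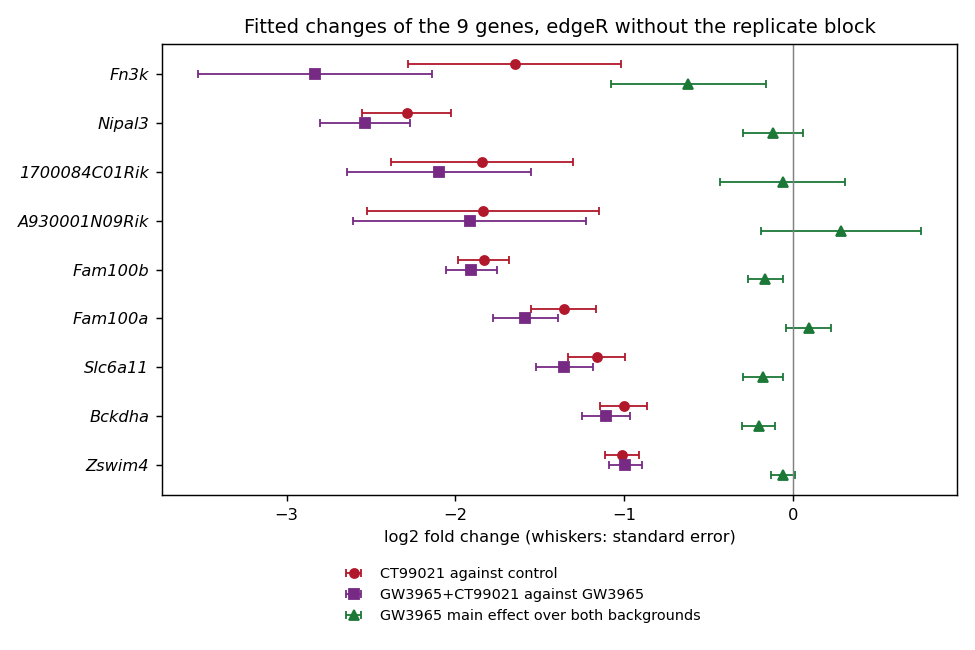
Fitted log2 fold change (horizontal axis) of each gene with its standard error (whiskers), from edgeR without the replicate block, for CT99021 against control (red), GW3965+CT99021 against GW3965 (purple) and the GW3965 main effect (green). Changes with CT99021 range from -2.83 for Fn3k to -0.99 for Zswim4, and those with GW3965 lie between -0.62 and 0.28.

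GW3965 was compared over both backgrounds, as the mean of GW3965 against control and GW3965+CT99021 against CT99021, a contrast whose direction the choice of genes does not fix. None of the 9 genes passed, with an edgeR adjusted p of 0.9999 for each without the block and between 0.682 and 0.994 with it, beside 0.0128% and 0.0384% of all rows called. The estimates lay between -0.62 (SE 0.46) for Fn3k and 0.28 (SE 0.47) for A930001N09Rik on the log2 scale, the genes with the widest errors, and 1700084C01Rik was at -0.06 (SE 0.37). The most precise values were -0.06 (SE 0.07) for Zswim4, -0.17 (SE 0.10) for Fam100b and -0.21 (SE 0.10) for Bckdha. Nipal3 was at -0.12 (SE 0.18), Slc6a11 at -0.18 (SE 0.12) and Fam100a at 0.09 (SE 0.13). These errors leave room for small changes in either direction. The difference between the CT99021 effect with and without GW3965 is given without a test, because the genes were chosen by the CT99021 effect. It was -1.18 (SE 0.92) for Fn3k and between -0.26 and 0.02 for the other 8 genes on the log2 scale.

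Per kilobase of listed transcript, the control level was highest for Fam100b, at 32.1 ± 1.93 CPM per kilobase (SD, n = 3), followed by Fam100a at 22.4 ± 4.44. Zswim4 at 18.6 ± 0.77, Slc6a11 at 18.1 ± 2.23 and Bckdha at 14.9 ± 2.22 came next. 1700084C01Rik stood at 8.72 ± 2.54, Nipal3 at 5.42 ± 0.56, A930001N09Rik at 4.54 ± 2.34 and Fn3k at 0.41 ± 0.22. Neighbours in this order that differed by less than the larger of their SDs were Fam100a and Zswim4, Zswim4 and Slc6a11, and Nipal3 and A930001N09Rik. Size of change did not follow this order of level, since the most and the least abundant of the 9 genes both changed more than Zswim4.

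Genes of the same families and pathways were read next, from 5 lists that leave out the 9 genes: 82 genes listed, 80 with a row and 74 tested. Without the block none of the 74 passed in CT99021 against control or in GW3965+CT99021 against GW3965, where 0.0577% and 0.0769% of all rows did. With the block 7 fell and 6 rose in the first contrast, where 15.8% of all rows were called, and 9 fell and 5 rose in the second, where 20.6% were. These shares are close to those of all rows.

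For magnesium transport, 1 of 19 genes fell and 3 rose in each contrast with the block. Nipa1, of the same family as Nipal3, fell in CT99021 against control, from 22.2 to 16.1 CPM. Its log2 fold change was -0.45 (SE 0.13, edgeR adjusted p = 0.0426), and -0.16 (SE 0.13, 0.427) in the second contrast. Cnnm3 fell in the second contrast by 0.30 (SE 0.09, 0.0372). Of the genes that rose, Nipal1 and Trpm6 were rare, at 1.46 and 0.87 CPM in controls. Nipal1, a relative of Nipal3, rose by 1.42 (SE 0.40, edgeR adjusted p = 0.0379 with the block) and by 1.5 (SE 0.39, 0.0235) on the log2 scale, opposite in direction to Nipal3. Its call in CT99021 against control held in 9 of the 18 settings with the block. Leaving out 1 library moved the change there from 0.87 to 1.70, and the call was lost without control replicate 1 or 2, any CT99021 library, GW3965+CT99021 replicate 1, or GW3965 replicate 1 or 2. In the second contrast it held in 13 of 18, and was lost without replicate 1 or 2 of either group. The channel kinases Trpm6 and Trpm7 rose with CT99021 alone, by 1.12 (SE 0.28) and 0.42 (SE 0.12), and had 0.77 (SE 0.26) and 0.35 (SE 0.12) in GW3965+CT99021 against GW3965, where neither passed (edgeR adjusted p = 0.0623 for each). The first calls held in 13 of 18 settings with the block for Trpm6 and in 10 for Trpm7, and both were lost without replicate 1 or 2 of the control or CT99021 group. That of Trpm7 was also lost without control replicate 3, GW3965+CT99021 replicate 3, or GW3965 replicate 1 or 2. Nipa2, a further magnesium transporter, rose in the second contrast by 0.44 (SE 0.08, edgeR adjusted p = 0.00412) and had 0.25 (SE 0.08, 0.0505) in the first.

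For branched-chain amino acid breakdown, 24 genes beside Bckdha were tested, and 3 fell and 1 rose in CT99021 against control, with 2 and 1 in the second contrast. Auh, a hydratase of leucine breakdown, fell by 1.14 on the log2 scale (SE 0.19, edgeR adjusted p = 0.00509 with the block), from 11 to 5.02 CPM. Aldh6a1, a dehydrogenase of valine breakdown, fell by 0.73 (SE 0.13, adjusted p = 0.00657 by edgeR with the block), from 22.6 to 13.9 CPM. Dbt, the E2 subunit of the same complex as Bckdha, rose by 0.45 (SE 0.12, edgeR adjusted p = 0.0315), from 23.3 to 31.8 CPM. This call held in 11 of 18 settings with the block, and was lost without replicate 1 or 3 of the control or CT99021 group. The 4th called gene, Mut, the methylmalonyl-CoA mutase that takes in the products of valine and isoleucine, fell by 0.41 (SE 0.10, edgeR adjusted p = 0.0265), a call that held in 13 of 18 settings with the block and was lost on leaving out any control library or CT99021 replicate 1 or 2. In the second contrast Auh, Aldh6a1 and Dbt passed again in the same directions and Mut did not (0.0863).

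For GABA and SLC6 transport, 18 genes beside Slc6a11 were tested. The GABA-making enzyme Gad2 fell in GW3965+CT99021 against GW3965 by 0.43 on the log2 scale (SE 0.07, edgeR adjusted p = 0.00414 with the block), and the amino acid transporter Slc6a15 by 0.52 (SE 0.12, 0.0131). The creatine transporter Slc6a8 rose by 0.34 in CT99021 against control (SE 0.07, edgeR adjusted p = 0.0152 with the block) and by 0.24 in the second contrast (SE 0.07, 0.0449). The calls of Slc6a8 held in 15 and 7 of 18 settings with the block. The first was lost without control replicate 2 or 3 or CT99021 replicate 2. The second was lost without control replicate 1 or 2, CT99021 replicate 2, any GW3965+CT99021 library, or GW3965 replicate 1 or 2.

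In the glycation list 1 of 7 genes fell in each contrast: Hagh, the glyoxalase that hydrolyses a glutathione adduct of methylglyoxal, fell by 0.65 (SE 0.12, edgeR adjusted p = 0.00684 with the block), from 12.6 to 7.99 CPM. Fn3krp, the paralog of Fn3k that lies 13580 bases from it, had -0.32 (SE 0.14) and did not pass (edgeR adjusted p = 0.154). Of 6 ZSWIM genes beside Zswim4, Zswim6 fell by 0.46 (SE 0.08, edgeR adjusted p = 0.0074) and by 0.32 (SE 0.08, 0.0247), and 2310021P13Rik rose with CT99021 alone by 0.57 (SE 0.14, 0.0216). With the block the Zswim6 calls held in 17 and 14 of 18 settings. The first was lost without control replicate 2, and the second without GW3965+CT99021 replicate 2 or 3 or GW3965 replicate 2. That of 2310021P13Rik held in 13, and was lost on leaving out any control library or CT99021 replicate 1 or 2.

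**Figure D4:**
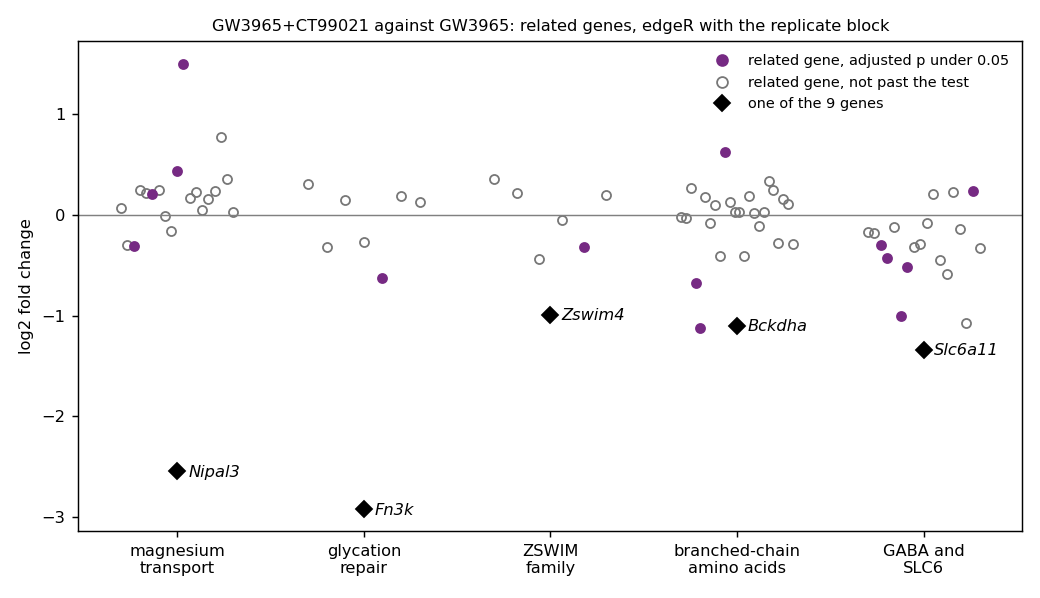
Log2 fold change in GW3965+CT99021 against GW3965 (vertical axis, edgeR with the replicate block) of each related gene (circles, filled where the adjusted p is under 0.05) in 5 lists, beside the gene each list belongs to (diamonds). The 5 diamonds lie between -2.92 and -0.99, and only Auh among the circles of their own list lies below its diamond.

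The rows next to the 9 genes were read as well, 2 on each side among tested rows, 36 in all. Without the block 1 fell in each contrast, Gm7367, which starts beside Fam100b. With the block 5 fell and 1 rose in CT99021 against control, where 15.8% of all rows were called, and 5 fell and 4 rose in GW3965+CT99021 against GW3965, where 20.6% were. These are about the shares of all rows, so the neighbours are given as a description. Beside Gm7367, the rows that fell included Atp5sl, 10459 bases from Bckdha (log2 -0.62, SE 0.12), the calcium pump gene Atp2b2, 385473 bases from Slc6a11 (-0.82, SE 0.17), and Foxj1, a regulator of motile cilia, 103290 bases from Fam100b (-0.64, SE 0.17), in CT99021 against control. Hsd17b7, a cholesterol synthesis gene 20698 bases from 1700084C01Rik, rose by 0.65 (SE 0.16, edgeR adjusted p = 0.0225 with the block). In GW3965+CT99021 against GW3965 the same rows passed in the same directions, and 5730403B10Rik, Ergic1 and Atp6v0e rose too, by 0.23, 0.25 and 0.33. No row that passed lay beside Nipal3, Zswim4, Fn3k, Fam100a or A930001N09Rik in the first contrast.

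Rows most like the 9 genes were found by Pearson's r of log2 CPM over the 12 libraries after removing the mean of each replicate number, among 14637 rows at 1 CPM or more. The libraries share the 4 treatments, so r mainly reflects the step with CT99021 and is a description. Among the 9 genes r lay between 0.901 and 0.991 over the 36 pairs, with a median of 0.952. The highest mean r to the 9 genes belonged to Ing4, a chromatin reader (0.976), Gm7367 (0.976), Ccng2, a cyclin of arrested cells (0.973), Atg13, which starts autophagy (0.972), and Calcoco1, an autophagy receptor (0.972). Their means went from 73.0 to 39.8 CPM for Ing4, from 76.6 to 29.5 for Ccng2, from 44.0 to 16.9 for Atg13 and from 59.5 to 21.9 for Calcoco1 between control and CT99021. For single genes the most alike rows were Sun2 and Mxi1 for Nipal3 (0.996 and 0.993), Kank3 and Trp53i11 for Fn3k (0.986 and 0.984), Maf1 and Crnkl1 for Zswim4 (0.996 and 0.995) and Ick and Cadm3 for Bckdha (0.994 and 0.993). They were AW551984 and Ing4 for Slc6a11 (0.990 and 0.989), Mnt and Gse1 for Fam100a (0.995 and 0.992), and Gm7367 and Maf1 for Fam100b (1 and 0.993). For A930001N09Rik they were Stx5a and Pdp1 (0.992 and 0.991), and for 1700084C01Rik Acad11 and Lpo (0.996 and 0.992). Maf1, a repressor of RNA polymerase III, averaged 67.8 CPM in controls and 36.5 with CT99021. Mxi1 and Mnt, repressors that pair with MAX, went from 72.7 to 44.8 and from 58.7 to 32.6 CPM.

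The promoters of the 9 genes, 250 bases before to 50 bases after the start in RefSeq's GRCm38.p6 table, were searched on both strands for 5 motifs. The table held 10 promoters for 8 of the 9 genes. The TCF/LEF motif CTTTGAT, through which beta-catenin acts, was in 0 of the 10, and in 3.73% of all 32851 promoters in the table. The FOXO motif GTAAACA was in 0 of 10, with 3.65% of all promoters, and the CREB motif TGACGTCA in 0 of 10, with 1.79%. The E-box CACGTG, bound by MYC, MAX and their partners and by TFEB, was in 1 of 10, that of A930001N09Rik, with 7.15% of all promoters. The longer form TCACGTGA, which contains the E-box and is typical of TFEB targets, was in the same promoter, with 0.974% of all. A match is a description of the letters and not evidence of binding, and no match says only that the letters are not in this window. The promoter that holds the motifs is printed for that reason, with TCACGTGA starting 126 bases and a second CACGTG 14 bases before the start in capitals, and those of Nipal3 and Fam100b as the 2 genes among the other promoters with the largest fall in the tested contrast that passed without the block. They lie on GRCm38.p6 at chr17:26715400-26715699 (plus strand), chr4:135494529-135494828 (minus strand) and chr11:116433844-116434143 (plus strand).
A930001N09Rik: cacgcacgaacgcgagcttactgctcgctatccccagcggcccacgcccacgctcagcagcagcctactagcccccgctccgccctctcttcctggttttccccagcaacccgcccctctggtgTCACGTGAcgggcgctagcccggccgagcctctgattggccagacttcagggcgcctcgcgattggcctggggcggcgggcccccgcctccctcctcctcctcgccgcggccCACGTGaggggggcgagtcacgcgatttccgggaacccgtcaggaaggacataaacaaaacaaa
Nipal3: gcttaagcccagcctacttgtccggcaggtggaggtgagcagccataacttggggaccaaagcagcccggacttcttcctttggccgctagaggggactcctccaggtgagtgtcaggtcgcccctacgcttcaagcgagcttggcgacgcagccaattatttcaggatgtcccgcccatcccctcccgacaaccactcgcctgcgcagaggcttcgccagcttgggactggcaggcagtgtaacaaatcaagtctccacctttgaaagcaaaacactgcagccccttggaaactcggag
Fam100b: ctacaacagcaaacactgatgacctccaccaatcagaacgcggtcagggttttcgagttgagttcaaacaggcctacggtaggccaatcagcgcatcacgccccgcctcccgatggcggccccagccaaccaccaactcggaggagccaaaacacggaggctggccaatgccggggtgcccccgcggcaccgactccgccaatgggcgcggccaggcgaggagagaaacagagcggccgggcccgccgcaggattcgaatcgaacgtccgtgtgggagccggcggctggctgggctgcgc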

How the data were processed

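RNA-seq read counts were analysed for 12 libraries in 4 groups of 3. The deposited table holds raw read counts per gene with the transcript length and 1 position per row, per the file headers. The submitters' processing notes name Bowtie and the mm9 build, without versions. The counting program, its use of strand and its treatment of reads that match several places are not given in the sources used, so genes that overlap or have near-identical copies are uncertain. The 1217 rows of repeats (0.196% to 0.643% of the counts) were left out.

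Counts were fitted with edgeR 4.0.16 (R 4.3.3; glmQLFit and glmQLFTest, TMM factors, filterByExpr, all 12 libraries with 1 mean per group, Benjamini-Hochberg over 15608 rows, threshold 0.05), first without covariates and then with the replicate number as a block. The numbers were taken to pair the libraries from the data alone: deviations from the group means correlated at 0.496 to 0.828 in the 18 same-numbered pairs and at -0.677 to 0.241 in the others. Deviations within a group sum to 0, which itself pushes the others downward, so their range is no separate support. In 172 rows GW3965+CT99021 replicate 2 stood with the libraries numbered 3, a likeness across numbers that the block does not describe. Log2 CPM used a prior count of 2. Within each group every pair of libraries differed by more than sampling noise. Alternatives were RLE factors (with the block, added after the data were seen), no filter, DESeq2 1.42.0, limma-voom 3.58.1, the compared groups only, and libraries left out. The procedure was tested on simulated data.

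The 9 genes and all gene lists were chosen with earlier results of these data known. Of the lists, up to 4 genes past the test in either fit were named, and for magnesium transport also those that fell. Of the neighbouring rows those past the test were named, and of the most alike rows 2 per gene and 5 over all. One item of the lists is not reported here.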

Additional observations from a re-analysis of the deposited data

How the results depend on the processing

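The replicate number as a block changed most counts. In GW3965+CT99021 against GW3965, all 9 genes passed in 18 of 18 settings with the replicate block. Without it 6 passed in the fit as reported, 1 with the compared groups only, 0 with the 5 libraries that stood apart left out, and 2 to 6 when 1 library was left out, against 9 in each case with the block. With 1 library left out, 3 to 14 of all rows were called without the block and 1396 to 3683 with it. Over all alternatives 0 to 4339 of all rows were called, so the counts of the 9 genes describe the settings. The log2 fold change of the 9 genes in this contrast was below 0 in 342 of 342 alternative values. For each gene the GW3965+CT99021 libraries lay below the GW3965 libraries, so these settings could hardly turn the sign. The count is therefore no measure of robustness. None of the 9 genes passed for GW3965 in any of its alternatives.

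Calls over all rows shifted between settings too. In CT99021 against control they numbered 9 as reported and 0 to 5398 over the alternatives. With 1 library left out they numbered 3 to 7 without the block and 652 to 3003 with it. The counts that follow describe the settings and are not a result about the related genes. Of the 74 related genes, 0 passed in CT99021 against control as reported. The count was 13 with the replicate block, 2 with DESeq2, 17 with DESeq2 and the block, 13 with the compared groups and the block, 1 and 19 without the libraries numbered 3 (without and with the block), 1 and 27 without the 5 libraries, 15 with RLE factors and the block, and, with 1 library left out, 0 in each case without the block and 5 to 18 with it. In GW3965+CT99021 against GW3965 the count, also 0 as reported, was 14, 4, 15, 12, 2 and 19 in the same order, then 12 without the 5 libraries and with the block, 12 with RLE factors and the block, and, with 1 library left out, 0 in each case without the block and 8 to 17 with it.

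Of the 36 neighbouring rows, 1 passed in CT99021 against control as reported, 6 with the replicate block, 2 with DESeq2, 8 with DESeq2 and the block, 0 and 8 with the compared groups only, 3 and 7 without the libraries numbered 3, 2 and 11 without the 5 libraries, 7 with RLE factors and the block, and, with 1 library left out, 1 in each case without the block and 2 to 8 with it. In the second contrast 1 passed as reported, 9 with the block, 9 with DESeq2 and the block, 6 with the compared groups and the block, 2 and 10 without the libraries numbered 3, 0 and 9 without the 5 libraries, 8 with RLE factors and the block, and, with 1 library left out, 1 in each case without the block and 4 to 9 with it. Calls over all rows shifted as well, as given above, so these counts are not a result about the neighbouring rows. The cause of these shifts was not tested. The low read count of Fn3k limits the precision of its values.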
